A study of Mus musculus with 4 samples.

Results

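The cytosolic ribosomal protein genes encode the protein components of the ribosome that translates nuclear messages in the cytoplasm. Members were taken by symbol: Rpl or Rps followed by digits with an optional a, x, y or l ending, plus Rplp0, Rplp1, Rplp2 and Rpsa, without pseudogenes named -ps and without the S6 kinase genes. The rule gave 80 of the 30905 genes counted, 49 of the large and 31 of the small ribosomal subunit. Ribosomal proteins with other symbols, such as Rps3a1, Rack1 and Fau, are outside the rule and were described apart.

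Ribosomal protein messages are among the most abundant messages of most cells, and a ribosome holds a fixed number of copies of each protein. Most of these messages begin with a cytosine followed by a run of pyrimidines, the terminal oligopyrimidine (TOP) motif, through which the kinase complex mTORC1 and the RNA-binding protein Larp1 control their translation. Beta cells devote most of their translation to preproinsulin, and alpha and delta cells to proglucagon and somatostatin.

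RNA of single cells from mouse pancreatic islets was counted with 10x Genomics 3′ chemistry (version 3) in 4 libraries, 1 for each labelled group. These were a normal control (age 98 days), early db/db (70 days), late db/db (98 days) and late db/db with intervention (98 days), here called the control, early, late and intervention libraries. Mice homozygous for the db allele of the leptin receptor gene become obese and diabetic. All 4 libraries, the control among them, have a genotype label of db/db on C57BL/KsJ. Since the growth protocol also lists C57BL/6 males, the labels leave the control's strain unclear. The intervention and the number of mice per library are not described in the sources used here. The matrix labelled early db/db has a file name that calls it a second control, and here it is taken by its label. Early db/db differs from the others in age as well as in group.

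Without replicates no test was possible, since every group had 1 library. All differences below compare libraries, and group, animals and library cannot be told apart. The 95% intervals cover counting error only. The libraries held 120934779 to 166034254 UMIs (unique molecular identifiers, 1 per captured RNA molecule) in all, and 4458, 4616, 5983 and 4906 cells were kept in the control, early, late and intervention libraries, with medians of 25984, 14563, 6201 and 26385.5 UMIs per cell. Between 8 and 21 barcodes were shared by each pair of libraries. The cell classes rest on clusters rebuilt here and carry the ending -like. The late library was rich in lymphocytes, and the db/db libraries drew their beta-like cells largely from other clusters than the control did. Cluster 1 held 2146 of the control's 2234 beta-like cells, cluster 6 held 665 of 1641 in early and 462 of 828 in late db/db, and cluster 4 held 1757 of 3293 in the intervention library.

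The start sites of some members named below are shown first, because most members are described as TOP messages and the motif can be read at the start. They do not stand for all members, and no result below rests on the motif. Each run has 15 bases before the annotated start and 15 from it on, 5′ to 3′ on the gene's strand, with the longest run of C and T in capitals. Starts are the first that RefSeq lists for the gene in build GRCm38.p6, and need not be the starts used in islet cells. The first 5 genes begin with a C followed by at least 4 pyrimidines, and the last 4 do not.
Rps6, chr4:86857353-86857382, minus strand: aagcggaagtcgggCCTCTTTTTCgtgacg
Rps18, chr17:33955651-33955680, minus strand: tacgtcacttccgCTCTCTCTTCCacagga
Rpl38, chr11:114668565-114668594, plus strand: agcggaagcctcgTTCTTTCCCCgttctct
Rps27, chr3:90213634-90213663, minus strand: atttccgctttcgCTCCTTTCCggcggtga
Rpl35, chr2:39005117-39005146, minus strand: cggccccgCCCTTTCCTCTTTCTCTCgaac
Rpl23, chr11:97782425-97782454, minus strand: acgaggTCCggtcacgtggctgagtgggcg
Rplp0, chr5:115559452-115559481, plus strand: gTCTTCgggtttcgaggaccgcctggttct
Rps28, chr17:33824548-33824577, minus strand: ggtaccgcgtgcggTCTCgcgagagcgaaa
Rps4x, chrX:102189377-102189406, minus strand: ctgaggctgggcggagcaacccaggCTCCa

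RefSeq promoters were found for 60 members. Of these 31 (51.7%) had a run of at least 8 pyrimidines within 30 bases of the start, on the gene's strand, against 22.8% of all 27025 promoters listed. A C at the first base followed by 4 pyrimidines was found at 12 of the 60, against 2.49% of all. The start sites shown above hold it more often than the 60 do. Rps2, Rpl31 and Rpl13a, also described below, do not have it. The core of the ETS factor motif, TTCCGG on either strand within the 300 bases around the start, was found at 30 members and at 15.2% of all promoters. CTTTCC on either strand, which overlaps the pyrimidine runs, was found at 29 members (48.3%) and at 26.3% of all. These are matches of letters and not measured sites.

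The share of UMIs from ribosomal protein genes differed most between cell classes. It was computed over all genes other than 7 hormone genes and the mitochondrial genes, since hormone messages took 53.5% to 69.2% of the UMIs of beta-like cells. The pooled share was lowest in acinar-like cells, which make digestive enzymes, at 5.12% of 132 cells of the early library. It was highest in late T- and NK-like cells, at 43.0% in 2150 cells. B-like cells stood at 36.2% in early and 36.5% in late db/db, and dendritic-like cells at 25.2% in late db/db. The lymphocytes were thus above all islet endocrine classes, whose highest value was 22.4% in alpha-like cells of the late library.

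Among endocrine cells the share was highest in alpha-like cells in all 4 libraries. Alpha-like cells, the source of glucagon, stood at 18.9%, 21.7%, 22.4% and 19.998% in the control, early, late and intervention libraries. Delta-like cells, the source of somatostatin, stood at 13.6%, 14.8%, 14.97% and 14.4%. Beta-like cells stood at 11.2%, 15.2%, 15.9% and 15.005% in that order. Delta-like cells were therefore above beta-like cells in the control and below them in the other 3 libraries, and the control's beta-like cells were the endocrine group with the lowest share. The ratios of the same libraries differed in size between the classes: late against control was 0.50 on the log2 scale in beta-like, 0.24 in alpha-like and 0.14 in delta-like cells. Early against control was 0.44, 0.20 and 0.12, and intervention against control 0.42, 0.08 and 0.08. Without cells whose share was under 7%, which are described below and were most frequent in the intervention library, the last 3 values were 0.45, 0.13 and 0.14. Leaving out cells by a low share raises that library's value by the choice itself. The alpha-like class held a Gcg-led cluster, 0, and a cluster led by Ppy and Pyy, 2, in unlike parts: cluster 2 held 341 of 1227 cells in the control, 771 of 877 in early and 91 of 191 in late db/db and 213 of 659 with the intervention. Within cluster 0 late, early and intervention against control were 0.23, 0.15 and 0.049, and within cluster 2 they were 0.38, 0.40 and 0.20, so that the latter lay closer to the beta-like values. Whether these differences between classes exceed the spread between animals was not tested.

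**Figure D1:**
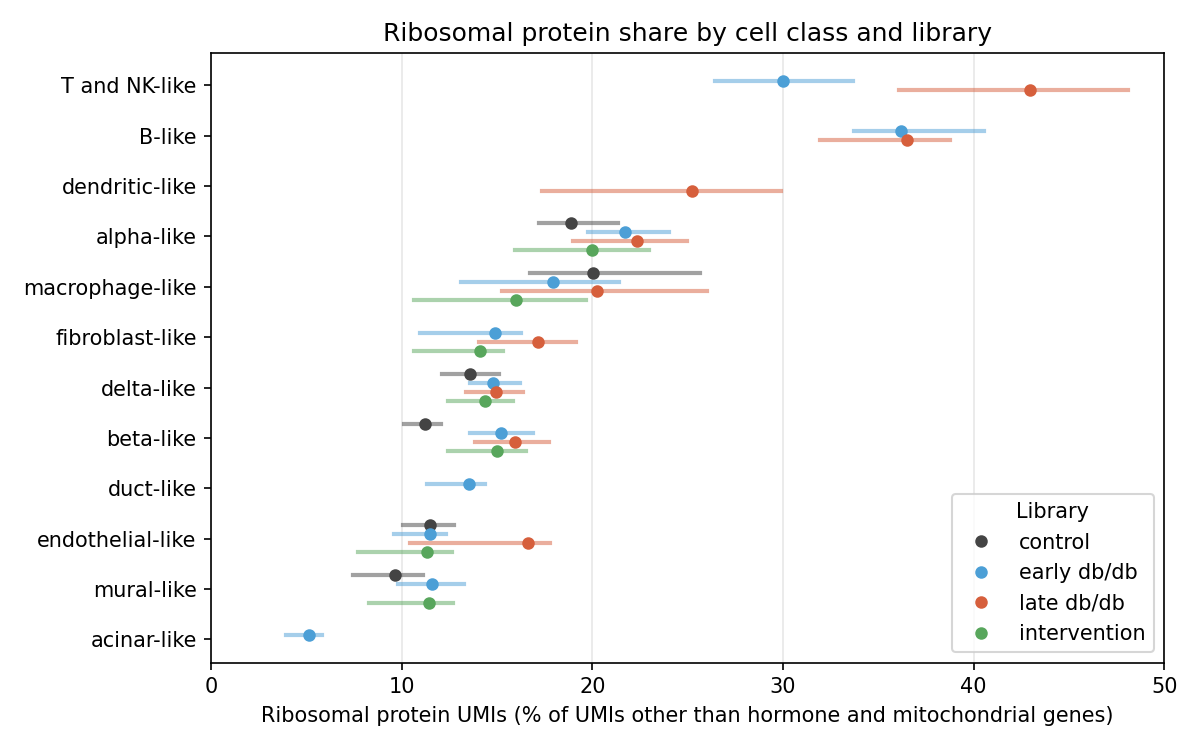
Pooled ribosomal protein share (points, % of UMIs other than hormone and mitochondrial genes) and the middle 50% of single cells (bars) for each cell class and library with at least 50 cells. Lymphocytes lie above 30%, acinar-like cells at 5.12%, and only the control's beta-like cells lie apart from the beta-like cells of the other 3 libraries.

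Macrophage-like cells stood at 20.1%, 17.9%, 20.2% and 15.99% in the 4 libraries. The late class held 75 cells of cluster 3, at 22.1%, and 52 of cluster 29, at 16.8%. Cluster 29 held no cells of the control and intervention libraries, so the late class value mixes unlike clusters. Mural-like cells, which wrap small vessels, stood at 9.63% (control), 11.6% (early) and 11.4% (intervention). Endothelial-like cells stood at 11.5%, 11.5%, 16.6% and 11.3%. The late library held 2 clusters that the others did not, and 166 of the control's 208 cells were in cluster 7, led by Esm1, which held 0, 0 and 1 cells of the other libraries. The 24 cells of cluster 13, led by Glycam1 and Madcam1, stood at 20.9%, and the 22 cells of cluster 12, led by Lyve1, at 15.2%. In cluster 11, which all libraries shared, the endothelial-like values were 11.9%, 11.5%, 12.5% and 11.3%, so that late against control was 0.073 within it and 0.54 over the class. Every ratio of endothelial-like cells to the control or to late db/db therefore compares unlike clusters. Values within cluster 11 (42 control cells) are given beside those used for the sum and for single members. The summaries by coding length below were not computed within it.

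T- and NK-like cells also differed among themselves. In the late library the cluster led by Cd8b1 stood at 47.3% in 715 cells and the cluster led by Trbc2 and Lef1 at 45.8% in 653 cells. The 152 cells led by S100a4 and Il7r stood at 24.4%. The class was at 30.02% in the early library, which held 121 such cells with a median of 2540 UMIs against 6064 in late db/db. Within cluster 22, led by Izumo1r and Trbc2, the early and late values were 29.3% and 37.0%, and within cluster 24, led by Ccl5 and Nkg7, 30.3% and 42.2%. Of the 77 members that entered the comparison of late with early T- and NK-like cells, 68 were at least 1.2-fold higher and 1 at least 1.2-fold lower, where 18.4% of all 2892 genes were that much higher and 51% that much lower.

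In beta-like cells most members lay above their control value: 77 of the 77 members compared in late db/db, and 65 each in the early and intervention libraries. Of all genes compared, 30.7%, 38.0% and 27.6% lay above the control in the late, early and intervention libraries. Per cell, the mean was 1539, 2854, 5415 and 2157 ribosomal protein UMIs in the control, early, late and intervention libraries, at median depths of 49396, 54707, 86432.5 and 41475 UMIs. The cell medians of the share were 11.02%, 15.2%, 15.8% and 14.5%. The middle 50% of cells ran from 10.1% to 12.0% in the control and from 12.4% to 16.5% with the intervention, so these ranges did not overlap, and the early and late ranges lay above the control's as well. Spearman's rho between share and depth over cells was 0.12, -0.14, 0.03 and 0.30 in the 4 libraries, but shallow cells could lie apart. In cells of 1000 to 5000 UMIs the median share was 3.25% (76 control cells), 18.5% (113 early), 16.4% (36 late) and 15.7% (146 intervention). In cells of 5000 to 20000 UMIs it was 11.3% (227 control cells), 16.1% (142 early), 18.9% (45 late) and 6.10% (629 intervention). Cells of 1 library are not replicates, so these are descriptions.

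Genes were compared where the higher library of the pair had 50 CPM or more (CPM is the gene's count scaled to a common total of the same denominator) and the pair together had 50 UMIs or more. In each of the 5 comparisons of beta-like cells 77 members entered. The 3 that did not were the paralogues Rpl3l, Rpl10l and Rpl39l. In late db/db against the control, 67 of 77 members were at least 1.2-fold higher and 0 at least 1.2-fold lower, where 17.9% of all 4169 genes were that much higher and 52.1% that much lower. The median member was 0.54 higher on the log2 scale, and the median of all genes was -0.29. Since that median lay below 0, a member of unchanged share stood above most genes.

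In early db/db against the control, 55 of 77 members were at least 1.2-fold higher and 1 lower, against 24.6% and 48.8% of 4250 genes. The median member was 0.51 and the median gene -0.24. In the intervention against the control, 49 members were higher and 3 lower, against 15.7% and 56% of 4155 genes, with medians of 0.46 and -0.34. These 3 comparisons share the control library, so that a feature of this 1 library enters all of them. In late against early db/db, 16 members were higher and 1 lower, against 13.3% and 17.6% of 3442 genes, and the median member was 0.04. In the intervention against late db/db, 0 members were higher and 18 lower, against 13% and 18.2% of 3427 genes, and the median member was -0.06. The summed shares of these last pairs differed little, by 0.07 and -0.09 on the log2 scale. Their direction turned to -0.08 and 0.08 in cells of 20000 to 60000 UMIs and to -0.02 and 0.04 after free RNA was subtracted.

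**Figure D2:**
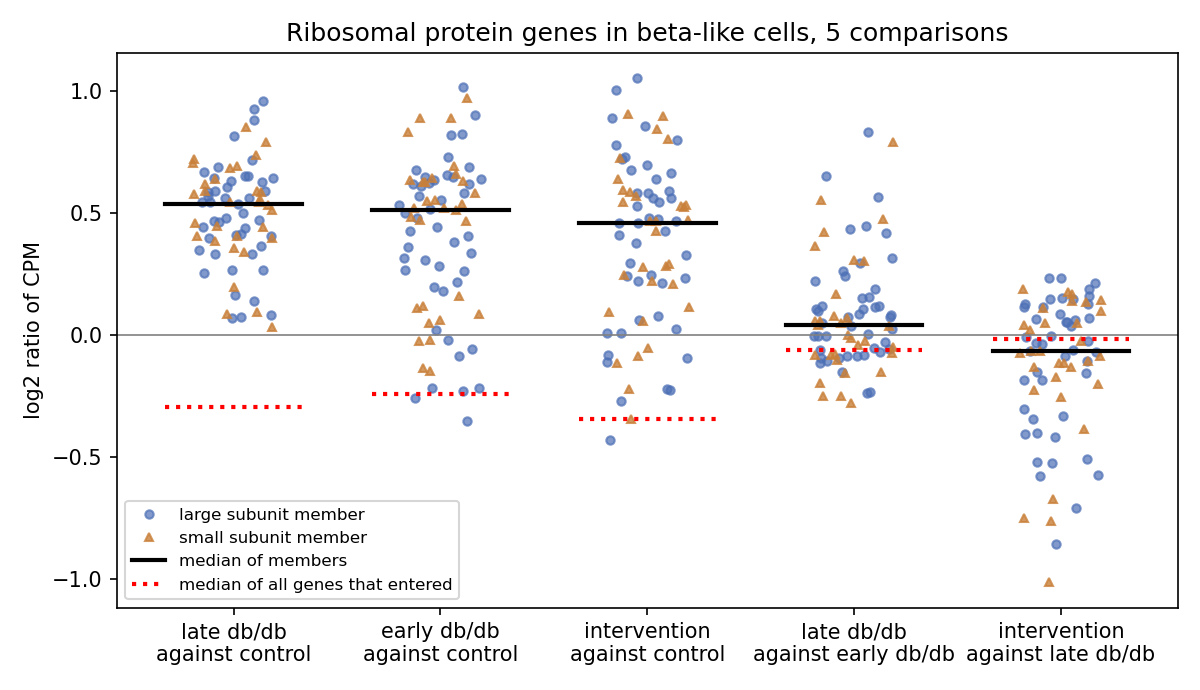
log2 ratio of CPM in beta-like cells for the 77 members that entered, in 5 comparisons of 2 libraries each (circles, large subunit; triangles, small subunit). In the 3 comparisons with the control the medians of the members (black, 0.54, 0.51 and 0.46) lie above 0 and the medians of all genes (red, dotted) below 0, while in the other comparisons both lie near 0.

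The difference from the control was also seen within clusters that the libraries shared. In cluster 1, led by Ins1 and Ins2, the share was 11.2% for control cells, 14.1% for late and 13.4% for intervention cells. In cluster 4 the control stood at 12.0%, and the early, late and intervention libraries at 14.3%, 15.6% and 14.7%. The control held 64 cells of cluster 4, with a median of 26428.5 UMIs, and late db/db 29 cells of cluster 1. Free RNA was estimated from deposited barcodes under 1000 UMIs, none of which held fewer than 500. Mitochondrial genes took 27.0%, 27.4%, 14.5% and 11.6% of their UMIs in the 4 libraries, and whether they hold free RNA alone was not tested. All Gcg, Sst, Ppy and Pyy UMIs of beta-like cells were counted as free, so UMIs of these genes made by the cells would raise the estimate. Free RNA so estimated took 2.73%, 13.6%, 12.0% and 6.13% of beta-like UMIs in the 4 libraries. Ribosomal protein genes took 11.3%, 10.6%, 17.6% and 16.2% of all its UMIs, with hormone and mitochondrial genes left in. On this basis of all UMIs, beta-like cells stood at 3.03%, 5.69%, 6.83% and 5.57%. After subtraction of free RNA the sum was 0.36 (late) and 0.38 (early db/db) above the control on the log2 scale.

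The large and small subunits took almost fixed parts of the sum. Large subunit members held 59.3%, 59.0%, 59.3% and 59.4% of ribosomal protein UMIs of beta-like cells, in the order control, early, late and intervention. The differences between single members were larger than that between the subunits. They were read as the member's share within the ribosomal protein sum, which does not move with the denominator or with a change common to all members.

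Rplp0, the scaffold protein of the stalk that recruits translation factors to the large subunit, stood at 1958, 3452, 3718 and 4060 CPM in the 4 libraries. The 3 db/db libraries were all higher than the control, by 0.93 in late, 0.82 in early and 1.05 with the intervention on the log2 scale. Its partners in the stalk did not follow it. Rplp1 stood at 2680, 2716, 2949 and 3127 CPM, and Rplp2 at 1207, 1405, 1603 and 1273 CPM. In late db/db against the control, the ratio was 0.14 for Rplp1 and 0.41 for Rplp2, so that Rplp0 was at 0.42 within the ribosomal protein sum and Rplp1 and Rplp2 at -0.37 and -0.10. The same 3 ratios within the sum for late against control were 0.20, 0.10 and -0.07 in alpha-like cells, where the 3 genes lay closer together.

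Rpl5 and Rpl11, which bind 5S ribosomal RNA and hold back the p53 ligase Mdm2 when ribosome assembly fails, were lowest in the control. Rpl5 stood at 1100, 1411, 1521 and 1648 CPM and Rpl11 at 1657, 2400, 2251 and 2491 CPM in the 4 libraries. Within the sum, their ratios lay between -0.08 and 0.20 for Rpl5 and between -0.16 and 0.23 for Rpl11 over the 5 comparisons. Rps6, the small subunit protein that S6 kinases phosphorylate downstream of mTORC1, stood at 1393, 1998, 1896 and 2030 CPM. Its ratio to the control was 0.44 in late and 0.52 in early db/db and 0.54 with the intervention, near the median of the members. Rpsa, also known as the laminin receptor, stood at 2005, 2175, 2138 and 2436 CPM and was among the members that differed least from the control in late db/db, at 0.09.

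Rpl23, a large subunit protein, had the highest ratio to the control in late db/db. It stood at 1588, 3207, 3087 and 2941 CPM in the 4 libraries. The 3 db/db libraries lay close together and well above the control, and within the sum Rpl23 was higher by 0.45, 0.58 and 0.47. In alpha-, delta- and endothelial-like cells its ratio within the sum for late against control was 0.16, 0.16 and 0.17, with 0.10 in endothelial cluster 11. Rpl7 behaved in a like way, at 892, 1667, 1569 and 1789 CPM. Its ratio within the sum was 0.31, 0.46 and 0.59 for late, early and intervention against the control. In alpha-like cells the late value was 0.05 and in delta-like cells -0.03. The other ratios to the control were higher outside beta-like cells as well. Early against control was 0.14 and 0.21 in alpha-like clusters 0 and 2, and intervention against control 0.27 and 0.36. In endothelial cluster 11 these values were 0.27 and 0.25.

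Rps4x, the X-linked small subunit protein, stood at 1404, 2750, 2313 and 2611 CPM. Rps3, which lines the entry of the message channel, stood at 1359, 2514, 2264 and 2544 CPM. Both small subunit genes were lowest in the control and lower in late db/db than in the other db/db libraries. Rps4x was 0.53 higher within the sum in early db/db against the control in beta-like cells, and 0.48, 0.43 and 0.45 in alpha-, delta- and endothelial-like cells, with 0.45 in endothelial cluster 11.

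At the other end were members whose CPM lay near the control's or below it. Rps2, a small subunit protein, stood at 1957, 1782, 2004 and 1889 CPM, and its ratio within the sum was -0.47, -0.57 and -0.47 for late, early and intervention against the control. Rpl36 stood at 1297, 1116, 1367 and 963 CPM, and was at -0.43, -0.65 and -0.85 within the sum. Its CPM ratio to the control was -0.43 with the intervention, which is more than 1.2-fold lower. Rpl31 stood at 546, 427, 577 and 468 CPM, and was at -0.42, -0.79 and -0.64, with a CPM ratio of -0.35 in early db/db. These large subunit genes lay closer to the control in the other endocrine classes: in late db/db against the control Rpl36 was at -0.01 in alpha- and delta-like cells, and Rpl31 at -0.09 and -0.01.

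Rpl21 stood at 1745, 1646, 1833 and 1615 CPM in beta-like cells, which was -0.43, -0.52 and -0.53 within the sum against the control. Here the other classes gave like values: for late db/db against the control -0.50 in alpha-, -0.49 in delta- and -0.59 in endothelial-like cells, and for early db/db -0.54, -0.55 and -0.50. In endothelial cluster 11 the values were -0.58 and -0.55. Within the ribosomal protein sum the control was thus above late and early db/db in this gene in each of these 4 classes, while in CPM of beta-like cells late db/db was above the control, by 0.071. Rps18 stood at 1659, 1759, 1761 and 1535 CPM and was at -0.42, -0.35 and -0.53 within the sum. Several of these genes have processed pseudogenes with near-identical sequence, so the split of reads between copies by the authors' counting could move single members. The 9 features named as pseudogenes with -ps held 0.14% to 0.28% of the members' UMIs in beta-like cells.

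Members with a short coding sequence were low in the intervention library and, to a smaller degree, in early db/db. Rps28, a small subunit protein with 207 coding bases, stood at 696, 973, 1205 and 597 CPM in the 4 libraries. The intervention library was lowest and its ratio to late db/db was -1.01, past 2-fold. Rpl38, with 210 coding bases, stood at 1737, 1711, 2687 and 1486 CPM. Rps29, with 168 coding bases, stood at 1932, 2014, 3489 and 2061 CPM, and Rps27, with 252, at 1555, 1405, 2059 and 1226 CPM. For Rpl38, Rps29 and Rps27 the late library was the highest of the 4. Their ratios within the sum, intervention against late db/db, were -0.77, -0.67 and -0.66, and -0.93 for Rps28.

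The same members were low to a like degree in other classes of the intervention library. For Rps28 the ratio within the sum against late db/db was -0.85 in alpha-, -0.87 in delta- and -1.27 in endothelial-like cells, and for Rpl38 -0.73, -0.66 and -0.62. In endothelial cluster 11 Rps28 was at -1.02 and Rpl38 at -0.56. Longer members were higher in turn: Rpl13, with 633 coding bases, was at 0.30 in beta-, 0.26 in alpha-, 0.26 in delta- and 0.42 in endothelial-like cells, and Rpl8, with 771, at 0.32, 0.26, 0.28 and 0.59. Within endothelial cluster 11 these 2 members were closer to 0, at 0.30 for Rpl13 and 0.21 for Rpl8. Over the 77 members, Spearman's rho between coding length and this ratio was 0.78 in beta-, 0.84 in alpha-, 0.79 in delta- and 0.60 in endothelial-like cells. The genes share 2 libraries and are no replicates, so these values describe this pair.

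Of the 20 members with at most 369 coding bases, 18 were below 0 within the sum in beta-like cells for the intervention against late db/db, with a median of -0.43. Of the 20 with at least 612 coding bases, 1 was below 0, with a median of 0.20. The medians were -0.42 and 0.21 in alpha-, -0.40 and 0.18 in delta- and -0.46 and 0.26 in endothelial-like cells. Against the control, the intervention library gave -0.38 and 0.16 in beta-like cells with a rho of 0.64, and early db/db gave -0.19 and 0.13 with a rho of 0.32. In early db/db against the control 14, 15, 14 and 14 of the 20 short members were below 0 in beta-, alpha-, delta- and endothelial-like cells. In late db/db against the control the short and long members stood at 0.01 and 0.05 with a rho of 0.02, and in late against early db/db the short members were the higher ones, at 0.19 against -0.11 with a rho of -0.42. Genes that are no members were read in CPM. In beta-like cells, intervention against late db/db, the median was -0.07 for 298 genes with at most 369 coding bases and -0.01 for 3018 longer ones. Against the control the short genes were the higher ones there, unlike the members. These medians were -0.13 and -0.37 for the intervention, 0.10 and -0.30 for early and -0.08 and -0.33 for late db/db. Intervention against control was -0.13 and -0.04 in alpha-, -0.05 and -0.01 in delta- and -0.12 and -0.03 in endothelial-like cells. Late against early db/db gave -0.17 and -0.05 in beta-like cells. Coding length was used after the length of the whole transcript had been seen. The latter gave the members a rho of 0.45 in beta-like cells, intervention against late db/db. The part of library preparation in this pattern was not tested.

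**Figure D3:**
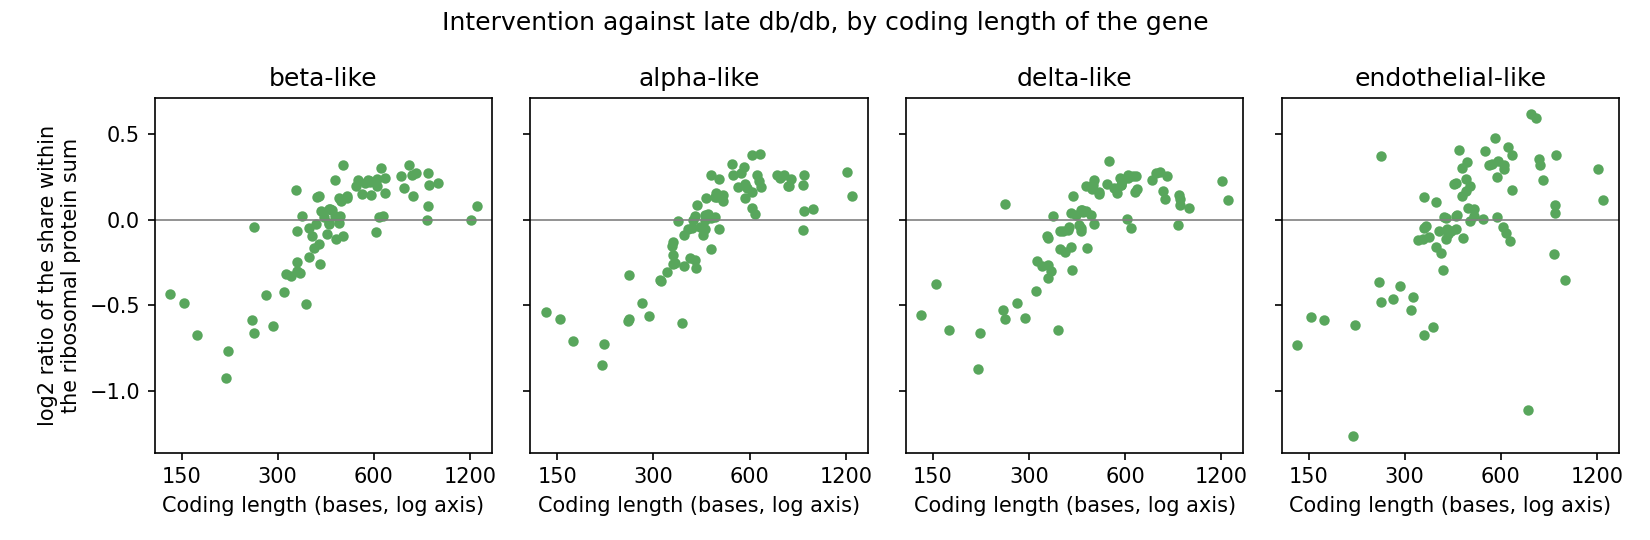
log2 ratio of each member's share within the ribosomal protein sum, intervention against late db/db, against the coding length of the gene (bases, log axis), in 4 cell classes. At least 18 of the 20 members with up to 369 bases lie below 0 and most members of at least 612 bases above it in each class. Rps3 in endothelial-like cells, at -1.11, is an exception that compares unlike clusters. Within cluster 11 Rps3 took 1.60% of ribosomal protein UMIs with the intervention and 1.32% in late db/db.

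Rpl35, a large subunit protein near the exit of the nascent chain, differed most within the sum between late and early db/db in beta-like cells. It stood at 580, 495, 882 and 591 CPM in the 4 libraries in beta-like cells. Late db/db was the highest and early db/db the lowest, and the ratio within the sum between these was 0.77 in beta-, 0.77 in alpha-, 0.67 in delta- and 0.90 in endothelial-like cells. In endothelial cluster 11 this ratio was 0.83. Against the control Rpl35 was at 0.10 in late db/db within the sum of beta-like cells. It was low in both the early and the intervention library, at -0.67 and -0.39. Rpl23a stood at 576, 496, 733 and 681 CPM and was 0.50 higher within the sum in late than in early db/db. Rpl13a stood at 190, 159, 213 and 191 CPM and was at -0.69 within the sum in early db/db against the control.

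Rps3 stood apart in endothelial-like cells of the late library. In cluster 12, led by Lyve1, it took 7.92% of ribosomal protein UMIs (7.66% to 8.19%), and in cluster 13, led by Glycam1, 3.10%. In cluster 11 it took 1.38%, 1.66%, 1.32% and 1.60% in the 4 libraries. Every one of the 22 cells of cluster 12 was high, from 3.86% to 11.7% with a median of 8.73%. Among all clusters of at least 20 cells in a library, these were the sole 2 in which Rps3 was at least 2-fold from the median over the clusters of its library, which was 1.41% in late db/db. Rps3 was singled out after these values were seen, and both clusters were found in this library alone.

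Across the classes of the control library, Rps27l varied most within the ribosomal protein sum. It is a close relative of Rps27 and is known as a p53 target gene. Rps27l took 0.39% of ribosomal protein UMIs in beta-like, 0.25% in alpha-like, 0.24% in delta-like and 0.12% in macrophage-like cells of the control, a range of 1.74 on the log2 scale. In the late library it took 0.40% in beta-like cells, 0.031% in B-like and 0.025% in T- and NK-like cells. Beta-like cells were higher than macrophage-like cells in all 4 libraries, with 0.51% against 0.16% in early db/db and 0.39% against 0.18% with the intervention. In CPM of beta-like cells it stood at 437, 778, 643 and 587 in the control, early, late and intervention libraries, while Rps27 stood at 1555, 1405, 2059 and 1226, so the paralogues did not move together.

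Rpl41, which encodes the shortest protein of the ribosome, took 4.05% of the sum in beta-like and 1.44% in macrophage-like cells of the control. In late db/db it took 3.87% in beta-like, 1.98% in macrophage-like and 1.30% in T- and NK-like cells, and in acinar-like cells of the early library 3.81%. Secretory endocrine and acinar cells were thus above immune cells in this gene. Rpl39, at the exit of the ribosomal tunnel, ran the other way and took 1.55% in macrophage-like and 0.73% in alpha-like cells of the control. Rpl10, which helps to join the subunits, was lower in lymphocytes, at 0.76% in the T- and NK-like cluster led by Trbc2 and Lef1 in late db/db, which was -1.002 against the median over the clusters of that library on the log2 scale. In the same cluster Rpl12, at the base of the stalk, took 2.38% and was 1.01 above that median.

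The paralogues Rpl3l, Rpl10l and Rpl39l, known from muscle and testis, were at or near 0. Rpl10l had 0 UMIs in the beta-like cells of all 4 libraries. Rpl39l had 5 UMIs in early db/db and 1 with the intervention, and Rpl3l had 1 in early db/db. Their common counterparts were abundant: Rpl3 stood at 1232, 1657, 1796 and 1692 CPM, Rpl10 at 2817, 3504, 4090 and 3916 CPM and Rpl39 at 1143, 1513, 1592 and 1071 CPM. Rpl39 was lower with the intervention than in the other db/db libraries. The largest count of Rpl39l in any class was 16 UMIs, in T- and NK-like cells of late db/db.

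A separate group of cells with few ribosomal protein UMIs was seen mainly in the intervention library. The shares of single beta-like cells there fell into a main group and a smaller one under 7%, a limit set after the distribution was seen. Of beta-like cells 13.3% lay under it in the intervention library (437 of 3293, 12.1% to 14.5%), 2.28% in the control (51 cells), 1.40% in early db/db (23) and 3.50% in late db/db (29). The same library held most such cells in other classes: 13.5% of alpha-like, 17.5% of delta-like, 18.5% of endothelial-like and 18.6% of macrophage-like cells. In the control these shares were 4.16%, 5.57%, 7.21% and 2.41%, and in early db/db 0.798%, 1.62%, 4.02% and 4.35%. Late db/db held 5.24%, 2.96%, 11.3% and 0 of 127 macrophage-like cells, which allows up to 2.36% if 0 is read as up to 3 counts, with an exact upper limit of 2.86%.

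**Figure D4:**
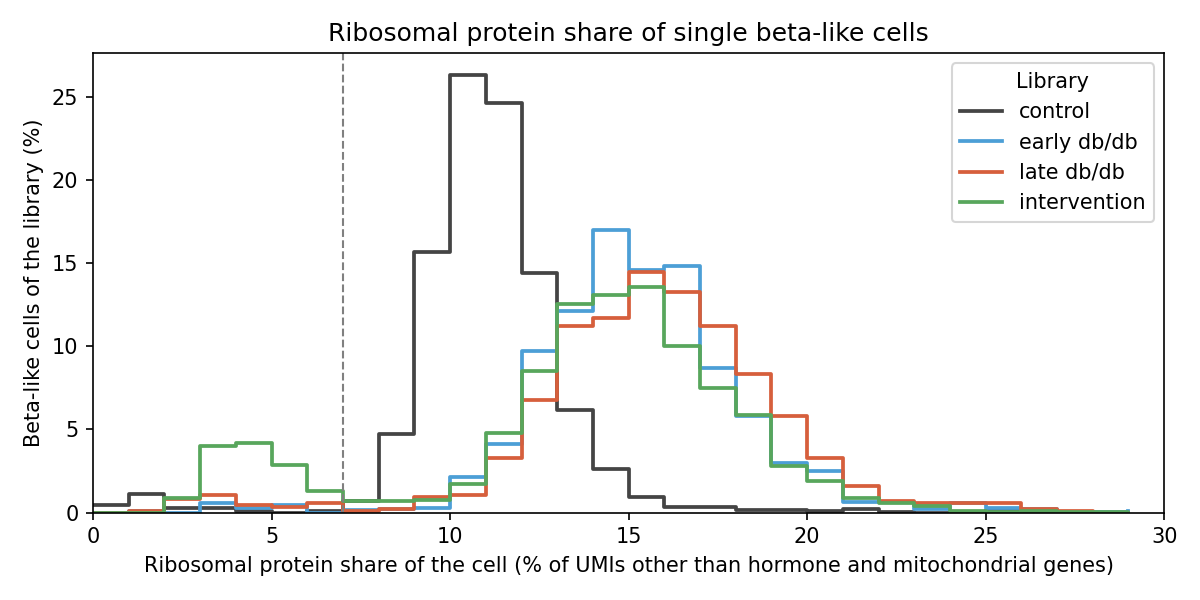
Distribution of the ribosomal protein share over single beta-like cells (percent of the cells of each library per bin of 1 percentage point). The control peaks near 10% to 12%, the other libraries near 14% to 16%, and the intervention library has a second group below the dashed line at 7%.

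These cells were shallow and carried other marks of their own. In the intervention library the low beta-like cells had a median of 11144 UMIs against 44355 in the rest, 1923 genes against 4491, and 12.0% mitochondrial UMIs against 3.14%. The nuclear noncoding RNA Malat1 took 11.7% of their non-hormone, non-mitochondrial UMIs against 2.15%. Hormone messages took 55.6% of their UMIs against 59.5%. Low cells of other groups did not share every mark: in the control's low beta-like cells hormone messages took 41.5% against 69.3%, and low endothelial-like cells of the intervention library had 2.70% mitochondrial UMIs against 3.40%. Since these cells were chosen by a low share, lower members in them are fixed by the choice. As a description, the ratio of the members to the rest ran from -2.50 to -0.34 on the log2 scale, with a median of -1.95. The part of RNA quality in this group was not tested. Without the cells under 7%, the summed share in beta-like cells of late db/db was 0.51 above the control, and rho between coding length and the ratio of intervention to late db/db was 0.77.

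**Figure D5:**
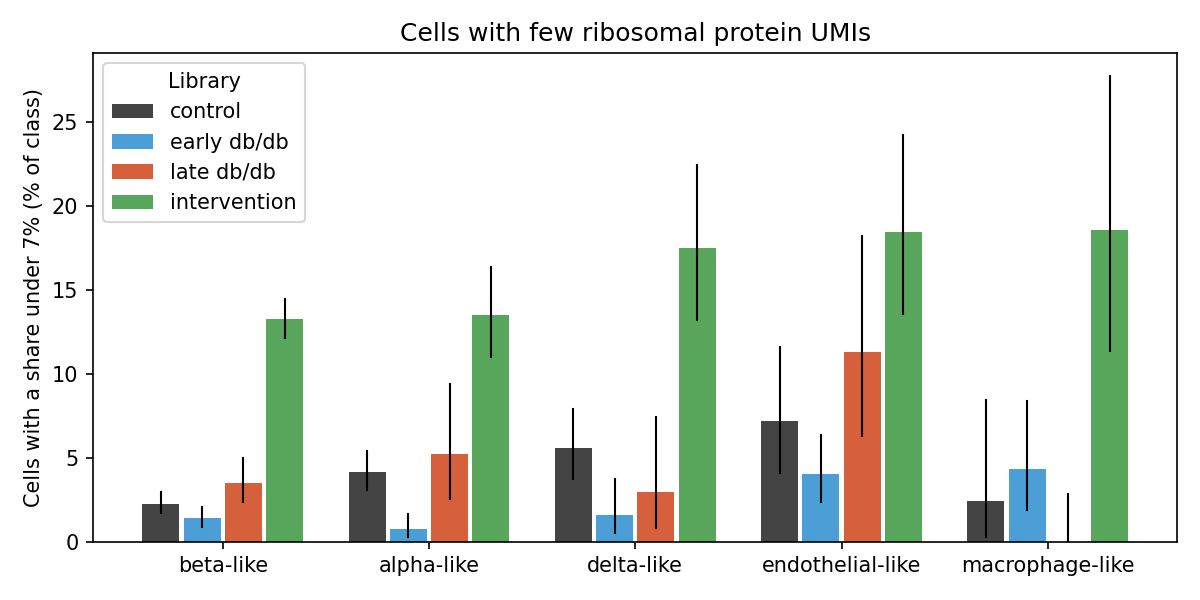
Percent of the cells of 5 classes with a ribosomal protein share under 7%, by library, with exact 95% binomial intervals that cover counting error only. In each class the intervention library has the highest value, from 13.3% to 18.6%.

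Ribosomal proteins outside the rule moved with the members in part. Against the control in beta-like cells, 4 of 8 in late, 5 in early db/db and 3 with the intervention were higher by 1.2-fold or more, and 0, 0 and 1 lower. Of all genes, 17.9%, 24.6% and 15.7% were that much higher and 52.1%, 48.8% and 56% that much lower. Rps3a1, of the small subunit, stood at 3322 CPM in late db/db and 2147 in the control (0.63), and at 0.73 and 0.72 in early db/db and the intervention library. Rack1, a signalling scaffold on the small subunit, stood at 0.76 with the intervention. Rpl22l1 and Rpl7l1 stood at 0.04 and -0.21 in late db/db.

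Of 20 other TOP messages and elongation factors, 9 were higher by 1.2-fold or more and 5 lower for late against control, where 17.9% and 52.1% of all genes were. For early these were 12 and 4, against 24.6% and 48.8% of all genes, and for the intervention library 11 and 2, against 15.7% and 56%. Eef1b2, which reloads the elongation factor Eef1a with GTP, stood at 683, 1258, 1310 and 1497 CPM in the 4 libraries. Tpt1, a growth-linked TOP message, stood at a ratio to the control of 0.69 (late) and 0.79 (intervention). The histone chaperone Nap1l1 stood at -0.57, -0.54 and -0.54 in late, early and intervention against the control. Hnrnpa1, an RNA-binding protein, stood at -0.56 in late db/db.

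Of 24 initiation factors 1 was at least 1.2-fold higher and 8 lower in the late, 3 and 10 in the early, and 1 and 15 in the intervention library, each against the control and to be read against the same shares of all genes. Their medians were -0.16, -0.17 and -0.31, where the median of all genes was -0.29, -0.24 and -0.34. The helicase Eif4a1 stood at -0.58 in late db/db and at -1.30 with the intervention, where its level was 154 CPM against 379 in the control. Eif3a, the largest subunit of initiation factor 3, stood at -1.02 in early db/db, and Eif3i at 0.33 in late db/db. Of 17 assembly factors 0 were higher and 7 lower in late db/db, against 17.9% and 52.1% of all genes, and 0 and 14 with the intervention, against 15.7% and 56%. In early db/db 3 of 19 were higher and 7 lower, against 24.6% and 48.8% of all genes. The medians were -0.22, -0.56 and -0.089 in that order. Ubtf, which drives transcription of ribosomal RNA, stood at -0.94 in late db/db, and the nucleolar proteins Nolc1 and Nop56 at -1.06 and -0.92 with the intervention.

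Genes of the mTORC1 pathway and of TOP control gave a median of -0.49 over 13 genes in late db/db against the control, with 2 higher and 9 lower where 17.9% and 52.1% of all genes were. In early db/db the median was -0.35, with 3 higher and 7 lower, against 24.6% and 48.8% of all genes. With the intervention the median was -0.28, with 2 higher and 7 lower, against 15.7% and 56%. Larp1, which binds the TOP motif, stood at 152 CPM in control cells, 57 in early and 87 in late db/db, with ratios of -1.42 and -0.81. Rheb, the activator of mTORC1, stood at 0.39 in late and 0.73 in early db/db. Eif4ebp1, an inhibitor of cap binding that mTORC1 inactivates, was 0.65 higher with the intervention than in late db/db, at 60 against 38 CPM. Mitochondrial ribosomal proteins differed between the comparisons. These belong to a separate ribosome. In early db/db against the control 23 of 57 were at least 1.2-fold higher and 6 lower, against 24.6% and 48.8% of all genes, with a median of 0.21. In late db/db 4 of 54 were higher and 9 lower, against 17.9% and 52.1%, with a median of -0.059. With the intervention 2 of 53 were higher and 13 lower, against 15.7% and 56%, with a median of -0.10. Mrpl17 stood at 0.56, 0.69 and 0.42 in late, early and intervention against the control, and Mrpl36 at -0.79, -0.61 and -0.82.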

How the data were processed

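UMI counts per gene and cell barcode (counts) were used as deposited, as whole numbers without normalization. The matrices come from Cell Ranger 3.0.0, per the file headers, and the submitters' processing notes name the build mm10, CASAVA 1.8, Cell Ranger and Seurat. With the annotation release not given in the sources used here, genes were taken by symbol. No barcode held fewer than 500 UMIs.

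Barcodes were kept with at least 1000 UMIs, 500 genes and at most 20% mitochondrial UMIs. Scrublet's automatic threshold (scanpy 1.11.5) marked only 2 of 5115 intervention cells and was judged to have failed. In its place the cells with the highest scores, 0.8% per 1000 cells, were taken out of every library (171, 184, 318 and 209 cells), a choice made after the data had been seen. The rest were clustered together on 2000 variable genes without hormone, mitochondrial and ribosomal protein genes, with 30 components, 15 neighbours and Leiden resolution 1 (igraph 0.11.9). Clusters took the class with most markers among 25 leading genes by fold. Those led by cell cycle genes stayed unnamed, also decided with the data in view. UMIs were summed per class and library. The denominator left out mitochondrial genes and the hormone genes Ins1, Ins2, Gcg, Sst, Iapp, Pyy and Ppy. Shares have exact Clopper-Pearson and ratios exact conditional binomial 95% intervals. PCR was controlled by UMIs, and intervals cover counting error only. A count of 0 was read as up to 3 counts. The ratio code was tested on simulated data. TMM factors came from edgeR 4.0.16 (R 4.3.3), as an alternative. Coding lengths (without the stop codon) came from GENCODE M21 and promoters from RefSeq. Members of a multigene family share sequence with pseudogenes. The strand setting of the counting was not stated in the labels or headers, so antisense reads could not be told apart.

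The members, gene lists and rules were chosen with earlier results of these data known. Genes named from the members were the 5 highest and 5 lowest per beta-like comparison by share within the ribosomal protein sum, the 5 with the widest range over the control's classes, the paralogues and 7 genes with known roles. Of other lists the 2 highest and 2 lowest past 1.2-fold could be named. Rpl12 and, in endothelial-like cells, Rps3 were named after their values were seen. Some members that this rule selects are not reported here.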

Additional observations from a re-analysis of the deposited data

Results flagged for a closer look

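The summed ribosomal protein share, intervention against control, had opposite signs in 2 cell classes. It was -0.02 on the log2 scale in endothelial-like cells and 0.42 in beta-like cells of the same libraries, and this difference was not tested, since each group is 1 library. Without cells whose share was under 7% the endothelial-like value was 0.089. These cells were 18.5% of the endothelial-like cells of the intervention library and 7.21% of the control's. They were chosen by a low share, so leaving them out raises the library with more of them by the choice itself. The limit was set on beta-like cells, and the lower quartile of the intervention library's endothelial-like cells was 7.71%. Within cluster 11 the endothelial-like value was -0.071 with all cells. The median member over the class was near 0, with 39 of 77 members above 0, where 46.7% of all 3874 genes were. The control's endothelial-like cells came mostly from a cluster that the intervention library held with 1 cell.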

How the results depend on the processing

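No paired analysis was possible because each group is 1 library. Values are log2 ratios of the summed share in beta-like cells, in the order late against control, early against control, late against early, intervention against late and intervention against control. With all UMIs as denominator they were 1.17, 0.91, 0.26, -0.29 and 0.88, and without ribosomal protein genes in the denominator 0.58, 0.50, 0.080, -0.10 and 0.48. With TMM factors they were 0.80, 0.75, 0.048, -0.13 and 0.66. With the stricter cell filter they were 0.51, 0.44, 0.077, -0.067 and 0.45, and without doublet removal 0.50, 0.44, 0.062, -0.082 and 0.42. In cells of 20000 to 60000 UMIs they were 0.37, 0.45, -0.083, 0.083 and 0.45, and as a mean over cells 0.50, 0.48, 0.022, -0.18 and 0.32. With beta-like cells taken by hormone content they were 0.50, 0.43, 0.071, -0.091 and 0.41, and after subtraction of free RNA 0.36, 0.38, -0.024, 0.043 and 0.40. In cells with at most 6% mitochondrial UMIs, an alternative chosen after seeing the data, they were 0.52, 0.45, 0.076, -0.058 and 0.47. Without cells whose share was under 7%, chosen by the share itself and after seeing the data, they were 0.51, 0.44, 0.072, -0.057 and 0.45.

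The 3 ratios to the control thus stayed above 0 under these 11 alternatives, and the other 2 changed sign in cells of 20000 to 60000 UMIs and after subtraction of free RNA. The cause was not tested. Members at least 1.2-fold higher in late than in early db/db numbered 34 with all UMIs, where 28.6% of all genes were that much higher. In cells of 20000 to 60000 UMIs they numbered 8, where 23.3% of all genes were. Those lower numbered 0 and 10 in these settings, where 3.23% and 22.5% of all genes were. They numbered 12 after subtraction of free RNA (19.0% of all genes), 3 with TMM factors (23.1%) and 3 with no minimum CPM (22.3%). Of the last 3, 2 were the paralogues Rpl39l and Rpl3l, which had few UMIs in early and none in late db/db. Members higher with the intervention than in late db/db numbered 20 in cells of 20000 to 60000 UMIs, where 12.6% of all genes were. After subtraction of free RNA they numbered 16 (16.9% of all genes). They numbered 1 each with no minimum CPM (30.7%), at most 6% mitochondrial UMIs (12.8%) and no cells under 7% (share of all genes not computed). With no minimum CPM this member was Rpl39l, with 1 UMI in the intervention library and none in late db/db. With all UMIs 40 members were lower, where 46.8% of all genes were. Members lower in early db/db than in the control numbered 0 with all UMIs and with TMM factors, 2 by hormone content and 6 after subtraction of free RNA. In these settings 15.9%, 22.3%, 48.5% and 49.2% of all genes were that much lower. Members lower with the intervention than in the control numbered 0 with all UMIs and with TMM factors, where 13.6% and 25.9% of all genes were. Without cells under 7%, intervention against late db/db in delta-like cells was 0.0099 in place of -0.060, and in cluster 2 alone late against early in alpha-like cells was -0.024 in place of 0.044. Depth limits shares in single cells of few UMIs, and no setting gives a spread between animals.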
